A study of Mus musculus with 6 samples.

Results

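The genes of NFAT and of its activating phosphatase calcineurin were examined by ribosome profiling, which counts the mRNA fragments protected by ribosomes, in mouse CD4+ T cells at rest and after activation. The 7 genes, listed by Ensembl ID, were the transcription factors Nfatc1 (ENSMUSG00000033016.14), Nfatc2 (ENSMUSG00000027544.15) and Nfatc3 (ENSMUSG00000031902.9), the calcineurin catalytic subunits Ppp3ca (ENSMUSG00000028161.16) and Ppp3cb (ENSMUSG00000021816.9), the regulatory subunit Ppp3r1 (ENSMUSG00000033953.10) and the calcineurin inhibitor Rcan1 (ENSMUSG00000022951.14). They are 7 of the 22322 genes in the deposited table, and their symbols come with the list of IDs, since the table holds no gene names. The cells were C57BL/6J CD4+ T cells from spleen and lymph nodes of female mice 6 weeks of age, isolated by depleting the other cells. The resting group had 3 libraries. The activated group had 3 libraries from cells exposed to magnetic beads with antibodies to CD3 and CD28. All 6 were labelled 0 h and untreated, so neither group had received the transcription or translation inhibitors that the wider study used to follow mRNA decay. Neither the duration of the activation nor any pooling of mice is stated in the sources used here. Replicates are labelled biological and numbered 2, 3 and 4 in each group, but no separate animals or cultures are named, so a p-value reflects the library-to-library spread, which may be technical. Values listed by library below follow that replicate order.

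In T cells, engagement of the antigen receptor raises cytosolic calcium, and calmodulin loaded with calcium switches on calcineurin, a phosphatase made of a catalytic and a regulatory subunit. Calcineurin removes phosphates from cytoplasmic NFAT proteins, which then enter the nucleus and act on cytokine and activation genes, often together with AP-1. Cyclosporin A and tacrolimus suppress immunity by blocking this phosphatase. The family members differ in their control: NFATc2 and NFATc3 are already present in resting T cells, whereas Nfatc1 is itself an NFAT target, with alternative promoters of which the upstream one is inducible. Rcan1 also has alternative promoters, and the downstream one is known to respond to NFAT.

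NFAT proteins recognise a short DNA core, GGAAA, which reads TTTCC on the opposite strand. RefSeq promoter windows (GRCm38.p6, the assembly that mm10 names; 250 bases before and 50 after a start) were matched by symbol for 5 of the 7 genes, giving 8 windows, and the core was searched in them on both strands. It was found in 5 of the 8 windows, where 61.3% of all 32851 windows of 300 bases hold it, so its presence does not set the genes searched apart. Nfatc1 and Ppp3ca had no window, so their promoters were not searched. The windows of Ppp3r1, of the upstream Rcan1 start and of the downstream Nfatc3 start had no match. The 30 bases around the last match before the start are shown for each of the 5 windows, as the letters that NFAT is known to read, in genes of its own pathway. They run 5′ to 3′ on the strand of the gene, with the core in capitals.
Nfatc2, upstream start, chr2:168601815-168601844, minus strand: gagtaaacaggaGGAAAcagtgagggaatc
Nfatc2, downstream start, chr2:168590535-168590564, minus strand: tcctaggaatcgGGAAAggctcagcgagtg
Nfatc3, upstream start, chr8:106058778-106058807, plus strand: ctatatgtgggcTTTCCttgctcgggtgtc
Ppp3cb, chr14:20546638-20546667, minus strand: tcccttggactgTTTCCgtttctgtagtag
Rcan1, downstream start, chr16:92400224-92400253, minus strand: tgacgtcacctcTTTCCagtagaaatttac
A match is a run of letters and not a measured binding site. The downstream Rcan1 window held 3 matches in all, the upstream Nfatc2 window 3 and the Ppp3cb window 4.

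Footprints in coding sequence (CDS) summed to between 437200 and 594508 counts in resting libraries and to between 511483 and 1074656 in activated libraries. Levels are CPM, CDS counts scaled to library size with TMM factors, which assume that most genes keep their relative level. The median log2 change of all 6775 genes that passed the low-count filter was -0.04, and -0.38 with library totals alone, so changes are relative to this scaling. Activated replicate 2 stood apart in its footprints on 5' UTRs, the mRNA leaders before the start codon, with 20.02 leader counts per 100 CDS counts against 14.0 to 15.5 in the other 5 libraries. Results are also given without this library where leaving it out moved a call or a direction. No mRNA abundance was measured in these files, so more mRNA and more ribosomes per mRNA cannot be told apart. In bulk samples, fewer cells of a type and less RNA per cell cannot be told apart either. The gene table given here paired 0 of 22322 Ensembl IDs with a symbol, so T cell and contaminant markers were not analysed here, and neither were the wider lists for calcium entry, NFAT kinases and NFAT target genes.

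Activation separated the NFAT family. Nfatc1 footprints rose 6.37-fold while those of Nfatc3 fell to 0.309 of their resting level, and the phosphatase subunits Ppp3ca and Ppp3r1 fell less. In edgeR's quasi-likelihood test, with Benjamini-Hochberg adjustment over all 6775 genes and a threshold of 0.05, 4 of the 6 genes tested changed, beside 45.5% of all genes. The single rise, Nfatc1, stands beside 24.1% of all genes that rose, and the 3 falls beside 21.4% that fell. For the same 4 genes resting and activated values were separate, as for 54.8% of all genes tested. The median log2 change was -0.64 over the 6 genes and -0.04 over all genes tested. Rcan1 had too few counts to be tested. So many genes passed the threshold that a call alone does not mark these genes out, and the sizes are given for each.

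**Figure D1:**
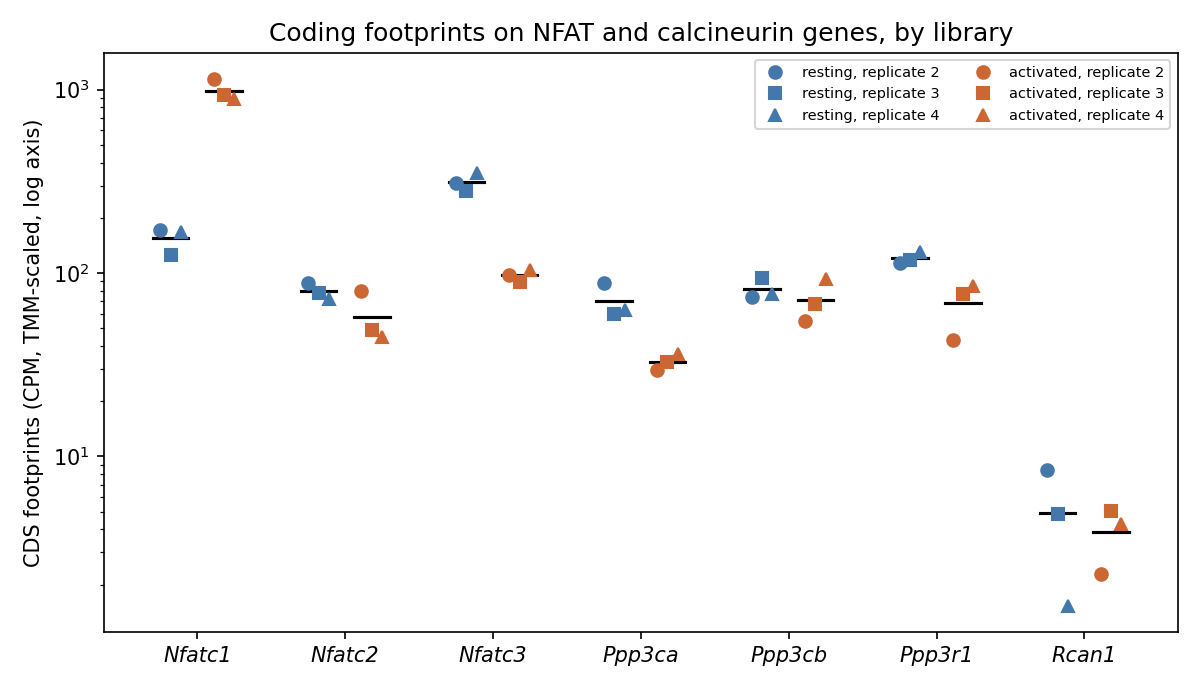
CDS footprints of the 7 genes in CPM (log axis), each point a library (blue resting, orange activated; marker shape gives the replicate number) and each bar a group mean of 3 libraries. The activated libraries of Nfatc1 lie at 894 to 1138 CPM and the resting ones at 125 to 172 CPM, Nfatc3 moves the other way, and Rcan1 stays under 10 CPM in every library.

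Nfatc1, the inducible NFAT, had 82, 77 and 109 CDS counts at rest and 501, 741 and 840 after activation. In CPM these were 172, 125 and 168 at rest and 1138, 931 and 894 after activation. Every activated library was far above every resting library, and the spread within each group was small beside the gap. Mean levels were 155 ± 26.1 CPM at rest and 988 ± 132 CPM after activation (SD, n = 3), a log2 fold change of 2.67 ± 0.18 (SE; adjusted p = 1.12e-08, edgeR), or 6.37-fold with a 95% interval of 4.92 to 8.25. It ranked 134 from the top of the 6775 genes tested. It was past the threshold under all 15 alternatives run, at log2 changes of 2.33 to 2.99.

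The genes whose log2 CPM ran most like that of Nfatc1 over the 6 libraries, among 6774 others with a mean of at least 10 CPM, carry no symbol here. The closest was ENSMUSG00000021248.8 (Pearson r = 0.9993) and the next ENSMUSG00000053801.15 (r = 0.9992). Their log2 changes were 0.67 and 2.97, so likeness of pattern did not mean likeness of size. With 6 libraries in 2 separate groups, this ranks genes by how evenly they sit within each group and is a description only.

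Nfatc3 (chr8:106058818-106130537), an NFAT present in naive T cells and thymocytes, had 148, 173 and 229 CDS counts at rest and 43, 71 and 98 after activation. In CPM these were 311, 281 and 352 at rest and 97.7, 89.3 and 104 after activation. The groups were wide apart and the activated libraries lay close together. The mean fell from 315 ± 35.8 to 97.1 ± 7.55 CPM (SD, n = 3), a log2 fold change of -1.69 ± 0.17 (SE; adjusted p = 5.59e-07, edgeR), which is 3.23-fold lower. It ranked 134 from the bottom of the 6775 genes, so Nfatc1 and Nfatc3 sat equally far from opposite ends of the list. The fall was past the threshold under all 15 alternatives run, at -2.03 to -1.56.

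Nfatc2 (chr2:168476410-168601657), the other NFAT that resting T cells hold ready, had 42, 48 and 47 CDS counts at rest and 35, 39 and 42 after activation. In CPM these were 88.3, 77.9 and 72.2 at rest and 79.5, 49.0 and 44.7 after activation. The groups overlapped, because activated replicate 2 lay inside the resting range while the other activated libraries lay below it. The means were 79.5 ± 8.16 and 57.8 ± 19.0 CPM (SD, n = 3), with a log2 fold change of -0.52 ± 0.24 (SE; adjusted p = 0.0908, edgeR; 95% interval -1.03 to -0.01). This missed the threshold. Without activated replicate 2 the log2 change was -0.73 (adjusted p = 0.0155, edgeR), and with library totals alone it was -0.86 (adjusted p = 0.00677, edgeR). Over the 15 alternatives it was below 0 in each, with adjusted p from 0.00677 to 0.344.

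**Figure D2:**
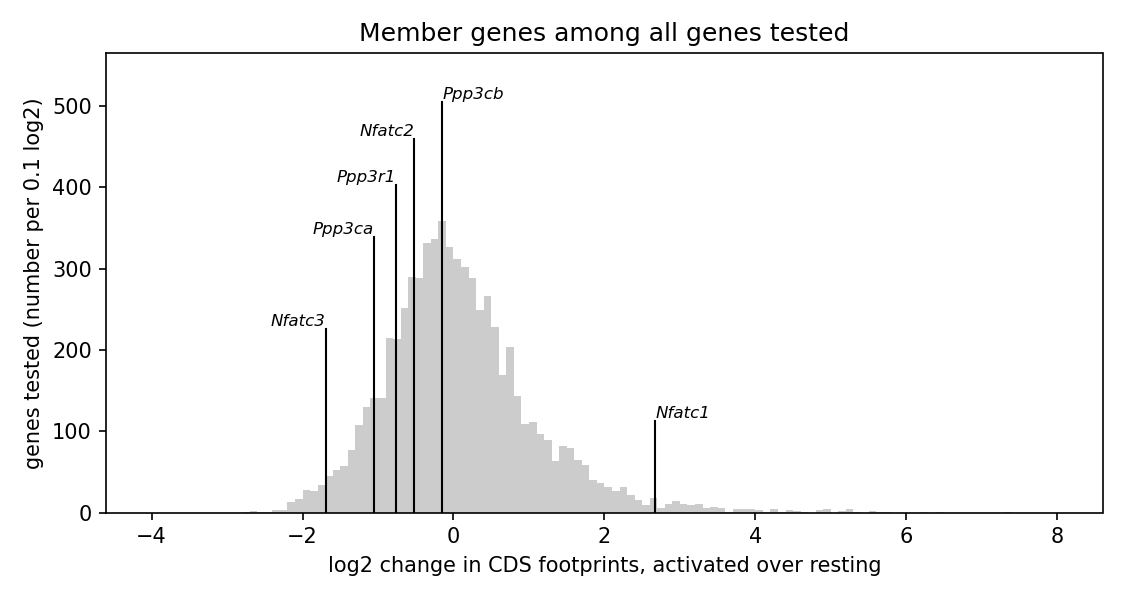
Distribution of the fitted log2 changes in CDS footprints over the 6775 genes tested (bars, genes per 0.1 log2), with a line at each of the 6 members tested, whose height has no meaning. Nfatc1 at 2.67 lies in the upper tail and Nfatc3 at -1.69 in the lower tail, while Ppp3cb at -0.15 lies near the median of -0.04.

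Of the calcineurin catalytic subunits, Ppp3ca fell and Ppp3cb did not pass the test. Ppp3ca (chr3:136669714-136937727), which encodes the alpha isoform, had 42, 37 and 41 CDS counts at rest and 13, 26 and 34 after activation. In CPM these were 88.3, 60.0 and 63.0 at rest and 29.5, 32.7 and 36.2 after activation. Every activated library was below every resting library. The mean fell from 70.4 ± 15.5 to 32.8 ± 3.33 CPM (SD, n = 3), a log2 fold change of -1.06 ± 0.25 (SE; adjusted p = 0.00254, edgeR), or 2.08-fold lower. The call held under all 15 alternatives, with adjusted p up to 0.0221.

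Ppp3cb (chr14:20499364-20546573), the beta isoform and a main source of calcineurin activity in lymphocytes, had 35, 58 and 50 CDS counts at rest and 24, 54 and 87 after activation. In CPM these were 73.6, 94.1 and 76.9 at rest and 54.5, 67.9 and 92.6 after activation. The groups overlapped, and the activated libraries were spread more widely than the resting ones. The means were 81.5 ± 11.01 and 71.7 ± 19.3 CPM (SD, n = 3), with a log2 fold change of -0.15 ± 0.23 (SE; adjusted p = 0.617, edgeR). Its 95% interval of -0.63 to 0.33 allows levels in activated cells from 0.648 to 1.26 of those at rest. A fall as large as the fitted one of Ppp3ca lies outside this interval. The 95% interval of Ppp3ca, -1.59 to -0.53, overlaps it, so these intervals do not show that the isoforms differ. Without activated replicate 2 the log2 change was 0.00 (adjusted p = 0.989, edgeR), so even its direction is not settled.

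Ppp3r1 (chr11:17159298-17200380) encodes the calcium-binding regulatory subunit, which both catalytic isoforms need. It had 54, 73 and 85 CDS counts at rest and 19, 61 and 80 after activation. In CPM these were 114, 118 and 131 at rest and 43.2, 76.7 and 85.2 after activation. The groups did not overlap, and activated replicate 2 was well under the other activated libraries. The mean fell from 121 ± 8.81 to 68.3 ± 22.2 CPM (SD, n = 3), a log2 fold change of -0.77 ± 0.22 (SE; adjusted p = 0.00971, edgeR). Without activated replicate 2 it was -0.56 (adjusted p = 0.0205, edgeR), and DESeq2 gave -0.75 (DESeq2 adjusted p = 0.0450).

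Rcan1 (chr16:92391951-92466169), a feedback inhibitor that binds calcineurin, had very few footprints in either group. It had 4, 3 and 1 CDS counts at rest and 1, 4 and 4 after activation, or 17 in all. The groups overlapped, at 4.94 ± 3.44 and 3.85 ± 1.42 CPM (SD, n = 3). With no low-count filter the log2 change was -0.13 (adjusted p = 0.937, edgeR). Its 95% interval of -1.77 to 1.496 includes both a rise and a fall of 2-fold. No library had an Rcan1 count in its leader, in the 3' UTR or in introns.

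**Figure D3:**
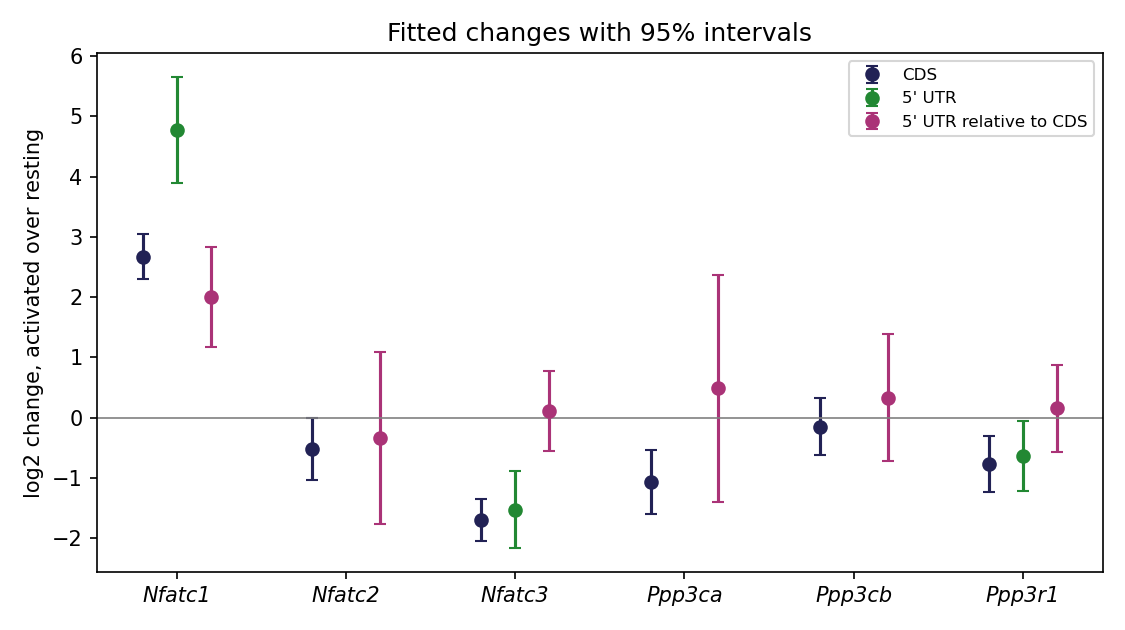
Fitted log2 changes (activated over resting) with 95% intervals for CDS counts, 5' UTR counts and 5' UTR counts relative to CDS counts; a region with no point failed the low-count filter. Only Nfatc1 has intervals wholly above 0 for CDS counts and for 5' UTR counts relative to CDS counts. Its 5' UTR point is a description, since that leader entered the test only through the activated libraries. The CDS intervals of Nfatc3, Ppp3ca and Ppp3r1 lie below 0. So does that of Nfatc2, which ends at -0.01 and whose adjusted p missed the threshold.

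Ratios between genes within a library do not depend on the scaling between libraries, and their change does not depend on gene length. This comparison was added after the data had been seen, in place of levels per codon, for which protein lengths were not used here. Per Nfatc3 count there were 0.554, 0.445 and 0.476 Nfatc1 counts at rest and 11.7, 10.4 and 8.57 after activation. The ratio was thus far higher in every activated library than in any resting library. Which gene had the higher level per codon in a group is not shown, since lengths were not used. The mean log2 ratio went from -1.03 ± 0.16 to 3.34 ± 0.22 (SD, n = 3), a 20.7-fold change of the ratio. For 3 libraries against 3 the exact two-sided permutation test cannot go below p = 0.1, which it gave here (0.12 adjusted over the 6 ratios compared).

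The ratio of Nfatc1 to Nfatc2 counts was 1.95, 1.60 and 2.32 at rest and 14.3, 19.0 and 20 after activation. It rose 9.08-fold with no overlap (exact permutation p = 0.1, adjusted 0.12). The ratio of Nfatc3 to Nfatc2 counts went from 3.52, 3.60 and 4.87 to 1.23, 1.82 and 2.33, a log2 change of -1.19, again with no overlap (exact permutation p = 0.1, adjusted 0.12). Of the CDS counts on the 3 NFAT genes together, Nfatc1 held 28.1 ± 2.16% at rest and 86.4 ± 0.68% after activation (SD, n = 3). Nfatc3 held 57.3 ± 2.61% and 8.59 ± 1.30%, and Nfatc2 held 14.6 ± 2.09% and 4.97 ± 0.94%. These shares compare the groups only, since longer coding sequences collect more counts.

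**Figure D4:**
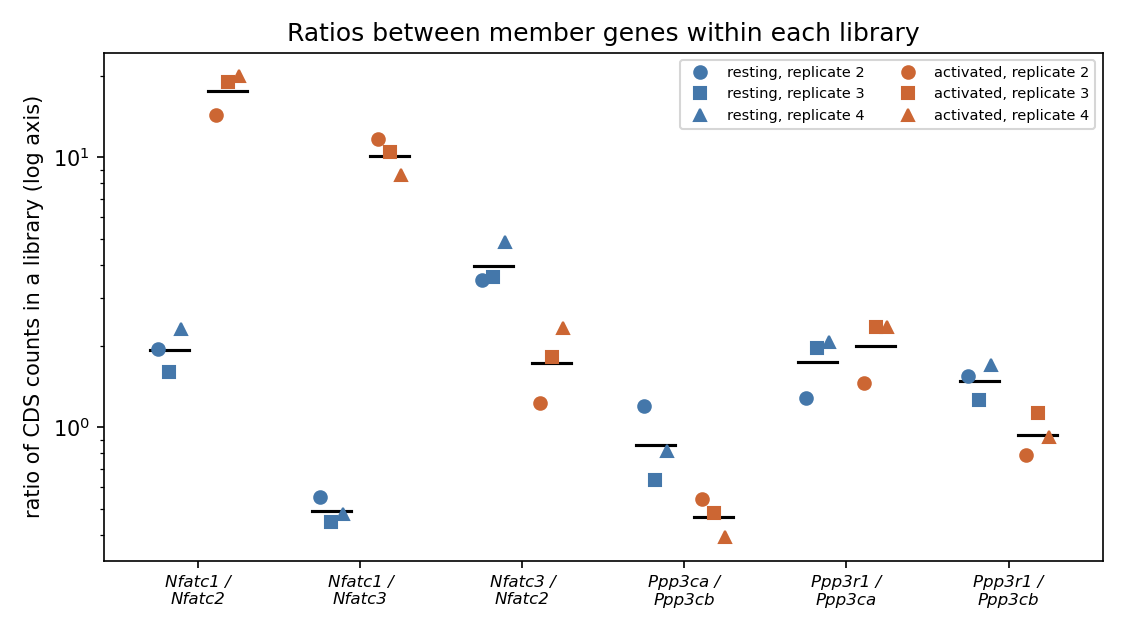
Ratios of CDS counts between pairs of member genes in each library (log axis; blue resting, orange activated; bars are means on the log scale of 3 libraries). The groups separate for 5 of the 6 pairs, by far most for Nfatc1 over Nfatc3, and overlap for Ppp3r1 over Ppp3ca. The pairs share genes and reuse the CDS counts tested above. How often other gene pairs separate was not computed, and 54.8% of single genes tested did, so the number of separate pairs is a description.

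Within calcineurin, the ratio of Ppp3ca to Ppp3cb counts was 1.20, 0.638 and 0.820 at rest and 0.542, 0.481 and 0.391 after activation. The groups did not overlap, with a log2 change of -0.87 (exact permutation p = 0.1, adjusted 0.12). Ppp3r1 per Ppp3cb count went from 1.54, 1.26 and 1.70 to 0.792, 1.13 and 0.920, also without overlap, a log2 change of -0.67 (exact permutation p = 0.1, adjusted 0.12). Ppp3r1 per Ppp3ca count overlapped between the groups, with a log2 change of 0.21 (exact permutation p = 0.5, adjusted 0.5), which was -0.01 without resting replicate 2. Relative to Ppp3cb, both Ppp3ca and Ppp3r1 were thus lower in every activated library than in any resting library.

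Leader footprints of Nfatc1 rose more than its coding footprints. The 5' UTR had 3, 7 and 5 counts at rest and 236, 195 and 144 after activation. The groups were far apart, and the activated library with the fewest CDS counts had the most leader counts. On 5' UTR counts alone the log2 fold change was 4.78 ± 0.41 (SE; adjusted p = 8.27e-07, edgeR) over 2200 genes tested. All 3 resting libraries were below the level that the low-count filter asks for, so this leader entered the test only through the activated libraries, and its call there is given as a description. With no low-count filter its log2 change was 4.83. In the same test Nfatc3 fell in its leader by a log2 fold change of -1.52 ± 0.30 (SE; adjusted p = 0.000986, edgeR), from 43, 69 and 53 counts to 28, 36 and 18. The leader of Ppp3r1 had 21, 33 and 37 counts at rest and 16, 36 and 35 after activation. As 5' UTR counts scaled to library size, these were 392, 416 and 500 CPM at rest. After activation they were 209, 332 and 292 CPM, without overlap. The log2 fold change was -0.63 ± 0.27 (SE; adjusted p = 0.0738, edgeR), which missed the threshold. The change of Nfatc3 was past the threshold under all 10 alternatives run, at -1.76 to -1.18. That of Nfatc1 lay at 4.37 to 5.06 over the same alternatives, again as a description. For comparison, 42% of all genes tested there changed, and no count of members is read against that share. Nfatc2, Ppp3ca and Ppp3cb had 20, 12 and 51 leader counts in all and were not tested on them.

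Per 100 CDS counts, the Nfatc1 leader had 3.66, 9.09 and 4.59 counts at rest and 47.1, 26.3 and 17.1 after activation. The groups were separate, but the activated libraries were spread widely, and the highest was activated replicate 2, which also had the most leader counts per 100 CDS counts over all genes. In a joint edgeR model of both regions, with each region scaled on its own, the leader-to-coding ratio of Nfatc1 changed by a log2 value of 2.00 (SE 0.42, edgeR adjusted p = 0.00360). That was 1 of 6 members tested, beside 0.462% of all 6282 genes (29 genes), and its p ranked 6 from the lowest. The estimate of spread is shared between genes in edgeR, so this p does not rest on the variation of Nfatc1 alone. Without activated replicate 2 the log2 change was 1.79 (adjusted p = 0.00821, edgeR). Without resting replicate 2 or resting replicate 4 it was 1.80 and 1.89, and the adjusted p rose to 0.0756 and 0.220. The resting side rests on 15 leader counts in all, which limits the precision of this ratio. Leader counts are per gene, and whether activated cells used another Nfatc1 leader was not tested.

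**Figure D5:**
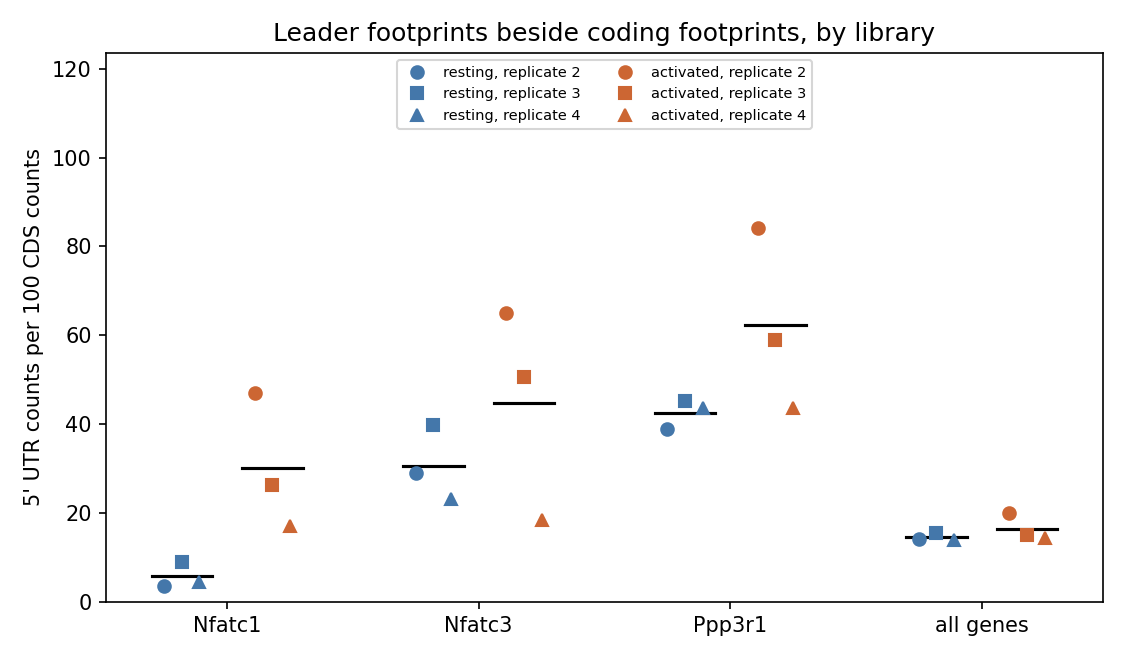
5' UTR counts per 100 CDS counts in each library for the 3 members that passed the low-count filter on leader counts and for the sum over all genes (blue resting, orange activated; bars are means of 3 libraries). Nfatc1 lies at 3.66 to 9.09 at rest and at 17.1 to 47.1 after activation, while the groups overlap for Nfatc3, for Ppp3r1 and for all genes.

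For the other 5 members tested, the change of the leader relative to the coding sequence missed the threshold. Nfatc3 had 29.1, 39.9 and 23.1 leader counts per 100 CDS counts at rest and 65.1, 50.7 and 18.4 after activation, so the groups overlapped. Its relative log2 change was 0.11 (95% interval -0.56 to 0.78, edgeR adjusted p = 0.970). Ppp3r1 had 38.9, 45.2 and 43.5 at rest and 84.2, 59.0 and 43.8 after activation, with a relative log2 change of 0.15 (95% interval -0.56 to 0.87, edgeR adjusted p = 0.955). The intervals of Nfatc2, Ppp3ca and Ppp3cb ran from -1.77 to 1.08, from -1.39 to 2.37 and from -0.72 to 1.39, each of which includes a relative rise of 2-fold.

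For Nfatc1, the sum of CDS (intersection-nonempty), 5' UTR and 3' UTR counts exceeded the exon counts of the gene by 0 to 4 in a library. This is a net difference, which sets only a minimum on the records counted in more than 1 region, and such sharing was not tested. The 3' UTR of Nfatc1 had 13 counts over all libraries, against 590 in the leader and 2350 in the CDS. The 3' UTRs of the other members had between 0 and 32 counts over all 6 libraries.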

How the data were processed

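The members and lists were chosen with earlier results of these data known. The authors deposited 1 table of raw counts per gene, with 36 count columns for 6 libraries; per the submitters' processing notes, these used TopHat2 2.0.13, Bowtie 1.1.1.0, HTSeq and build mm10. No source used here states the trimming, the annotation release or whether counting used strand, so overlapping genes on opposite strands cannot be separated. Summary lines that name no gene were left out of library sizes; non-unique alignments were between 65.8% and 79.6% of records, records in no CDS between 11.8% and 14.5%.

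The first CDS column was the main count. edgeR 4.0.16 (R 4.3.3; filterByExpr, TMM, glmQLFit, glmQLFTest, two-sided) was run on all genes, with Benjamini-Hochberg adjustment; SE is the change over the square root of F. The joint model of both regions had terms for library, region and region in activated cells, and took genes with at least 5 counts in each region. DESeq2 1.42.0 and limma 3.58.1 voom were alternatives. The CDS fit and the joint model were run on simulated data, the joint model only on genes with more counts per region than its own minimum. These runs are not used as support for any call. Named genes were all 7 members, and for the most changed and the most abundant member (both Nfatc1) the 3 genes most alike, of which 2 IDs are printed. Pathway lists and markers could not be matched to IDs.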

Additional observations from a re-analysis of the deposited data

Results flagged for a closer look

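Intronic counts, which no comparison above uses, were higher on Nfatc1 in each activated library than in each resting library. There were 11, 17 and 9 intronic counts at rest and 23, 43 and 50 after activation (replicates 2, 3 and 4). Scaled by the exon counts of the library, as CPM, these were 19.5, 23.3 and 11.9 at rest and 34.0, 37.5 and 37.3 after activation. The means were 18.2 ± 5.80 and 36.27 ± 1.93 (SD, n = 3). The exact permutation p of 0.1, the smallest that 3 against 3 can give, was fixed by the rule that flagged the gene and is no support. Per 100 exon counts of the gene itself there were 12.8, 20 and 7.83 at rest and 3.06, 4.47 and 4.98 after activation. The origin of these records was not tested.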

How the results depend on the processing

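Genes changed in the CDS numbered 3082, and 2214 to 3659 over the alternatives (2632 to 3055 without each library). Nfatc1, Nfatc3, Ppp3ca and Ppp3r1 kept direction and threshold in all 15. Nfatc2 (log2 change -0.52) passed it with upper quartile factors (-0.66), library totals alone (-0.86) and without activated replicate 2 (-0.73; range without each library -0.73 to -0.33). Ppp3cb ranged from -0.36 to 0.0044 without each library. Lower genes numbered 1449, and 2560 with library totals alone (1099 higher), 1881 with upper quartile factors (1392 higher) and 822 with DESeq2 (1392 higher). Leader calls numbered 925, and 575 with DESeq2. Library totals alone brought the leader change of Ppp3r1 past the threshold (-0.87). For leader relative to coding counts, 29 genes changed, 6 with 1 scaling for both regions, 17 with at least 20 counts in each region and 2 to 45 without each library; fewer genes or libraries enter some of these fits, and otherwise the cause was not tested. The relative change of Nfatc1 was 2.28 with 1 scaling (edgeR adjusted p = 0.0105). The median over all genes tested was 0.33 with 1 scaling and 0.07 with each region scaled on its own. Uncalled relative changes turned sign without a library: Nfatc2 at 0.019 (range -1.36 to 0.019), Nfatc3 at -0.041, -0.036 and -0.14 (-0.14 to 0.49), Ppp3ca at -0.12 (-0.12 to 2.44) and Ppp3cb at -0.097 and -0.33 (-0.33 to 0.82). So did the log2 ratio of Ppp3r1 to Ppp3ca, at -0.012 (-0.012 to 0.43). Libraries of equal number correlated at 0.12, 0.07 and 0.22 in their deviations from group means, and others at -0.15 to 0.0037. Each library thus correlated best with its own number, and a pairing by number is possible. The main fits did not take the numbers as pairs, and the replicate block is given as the alternative. With the replicate block, 3446 genes changed in the CDS and 25 in leader relative to coding counts; it changed no member's call (Nfatc1 2.00 and 1.99 for the relative change). The block on ratios can give no exact p under 0.25. The alternatives for ratios were chosen after seeing the data. Levels per codon and the pathway lists were not run, for want of lengths and symbols. Depth limits Rcan1 and the leaders of Nfatc2, Ppp3ca and Ppp3cb most.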
